A study of Mus musculus with 12 samples.

Results

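Many of the 42 immediate early and activation genes described here have transcripts that appear soon after a cell receives a signal. Some, such as Btg1, are known from resting lymphocytes. The 42 genes were taken from a list of symbols and matched to the annotation of the array. There, all 42 had a probe set assigned to that gene alone, of 18193 genes in all. Where a gene had several probe sets, that of the highest mean stood for it, and genes whose log2 value reached 4 on at least 2 arrays were kept. This left 41 of the 42, among 9306 genes tested. Ier3, an early-response gene linked to cell survival, was not kept. Its value was 2.21 to 2.23 on all 12 arrays, at the lowest values in the data.

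Immediate early genes are transcribed from factors that are already present in a resting cell, so their messages can accumulate without new protein synthesis. Antigen receptor, Toll-like receptor and stress signals act on them through MAP kinases, calcium and NF-kB, and many of their products in turn shut the signal down. In resting B cells immediate early genes are known as a readout of recent stimulation. The 42 genes fall into 10 roles: AP-1 subunits, EGR factors, NR4A nuclear receptors, other inducible transcription regulators, NF-kB feedback inhibitors, MAP kinase phosphatases, mRNA decay and antiproliferative factors, IER proteins, surface and G protein regulators, and stress and growth arrest factors.

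The study measured splenic marginal zone (MZ) and follicular (FO) B cells from female C57BL/6 mice aged 10 weeks. MZ B cells are the innate-like B cells at the border of the white pulp, and FO B cells are the recirculating majority. Cells were depleted of other lineages with magnetic beads and sorted as B220+AA4.1-CD21highCD23low (MZ) or B220+AA4.1-CD21intCD23+ (FO). The 3 genotypes were Bcl6(flox/flox), here homozygous or HOM, Bcl6(+/flox), here heterozygous or HET, and Bcl6(+/+), here wild-type or WT. Every group, wild-type included, carried mb1-cre(+/-), a Cre that acts from the early B lineage on. BCL6 is a transcriptional repressor needed for germinal centre B cells. Each of the 6 groups had 2 arrays. The labels say neither whether the 2 came from separate mice nor whether MZ and FO cells shared mice, so the p-values below measure only the spread between these arrays. With 2 arrays a group, the number of arrays limits the precision of every comparison.

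The sort labels were checked first. The mean of 6 MZ markers was 11.93 to 13.03 on MZ arrays and 8.38 to 8.90 on FO arrays, and that of 3 follicular markers was 10.02 to 10.53 on MZ arrays and 12.23 to 12.91 on FO arrays. Fcer2a encodes CD23, on which the gate selects, and was 8.85 to 9.50 on MZ arrays and 13.63 to 14.25 on FO arrays. Ccr7 was 9.10 to 11.23 on MZ arrays and 11.30 to 12.42 on FO arrays, and Cxcr5 overlapped, with 10.53 to 12.53 and 10.64 to 12.62. The T cell receptor genes Cd3d, Cd3e and Cd3g and the NK cell genes Ncr1 and Nkg7 were 2.21 to 2.25 on every array, and 3 platelet markers were 2.21 to 2.53. Of the 6 T cell markers 1 was kept, Cd8a, at 2.55 to 2.81 on MZ arrays and 4.22 to 4.53 on FO arrays. Markers listed for dendritic, erythroid and plasma cells were kept as well, and Flt3, Car2 and Jchain of these are described below. Bcl6 itself did not check the genotype labels: of its 2 probe sets, one was 9.95 and 10.37 in MZ HOM, 9.44 and 9.38 in MZ HET, 8.29 and 8.81 in MZ WT, 12.70 and 12.88 in FO HOM, 11.91 and 12.11 in FO HET, and 11.95 and 11.65 in FO WT. The other was 2.22 on all 6 MZ arrays, 2.36 and 2.48 in FO HOM, 4.93 and 4.86 in FO HET, and 4.94 and 5.61 in FO WT. The deleted exons and the exons the probe sets cover are not given in the sources used here.

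Some arrays stood apart in ways that the groups do not explain. The signal of the Gapdh control at the 3' end exceeded that at the 5' end by 6.90 log2 units on MZ WT replicate 1, with -0.20 to 0.63 elsewhere. For actin this was 2.19 on that array, with 0.64 to 1.07 elsewhere. The neutrophil genes S100a8 and S100a9 were 7.04 to 9.81 on 4 arrays (MZ HOM, MZ WT, FO HOM and FO HET, replicate 1 of each) and 2.21 to 2.66 on the other 8. On the same 4 arrays the B cell factor Pax5 was 6.14 to 6.60, against 7.31 to 8.38 on the other 8, and the chemokine receptor Cxcr5 was 10.53 to 10.95, against 12.03 to 12.62. Cd79b separated them too, with 14.74 to 15.05 against 15.19 to 15.40. Other B cell genes did not: Cd79a was 10.12 to 11.09, against 10.03 to 11.78, and Ms4a1 and Ccr7 overlapped as well. In the groups of these 4 arrays, Cd79a and Ccr7 were higher on replicate 1 than on replicate 2. Ms4a1 was higher on replicate 1 in FO HOM and FO HET and lower in MZ HOM and MZ WT. The myeloid markers Cd14 and Itgam were 2.21 to 2.47 on all 12 arrays. Over all 7 myeloid and neutrophil markers, 5 of them kept, the mean was 4.82 to 5.79 on the 4 arrays and 2.78 to 3.69 on the other 8. That mean includes S100a8 and S100a9, by which the 4 arrays were picked, so its separation was fixed in advance. Lyz2 overlapped, with 5.01 to 6.68 against 3.17 to 5.49, and Csf1r was highest on MZ HET replicate 1, at 5.69. Cd68 was 7.58 and 7.85 against 6.80 to 7.35 in MZ cells, and 5.64 and 6.13 against 4.19 to 4.85 in FO cells. Flt3, listed for dendritic cells, was 5.24 to 7.15 on the 4 arrays and 4.41 to 5.32 on the other 8. It was higher on replicate 1 than on replicate 2 in each group of the 4 arrays. Car2, listed for erythroid cells, was 6.68 on MZ WT replicate 1 and 2.49 to 2.59 on the other MZ arrays. On FO arrays it was 4.43 to 8.49.

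The main feature of the immediate early and activation genes was their spread between arrays of the same group. Their mean log2 value was 11.18 and 9.50 in MZ HOM, 8.11 and 9.37 in MZ HET, 11.21 and 9.73 in MZ WT, 11.52 and 10.16 in FO HOM, 11.30 and 10.02 in FO HET, and 9.03 and 10.91 in FO WT (replicate 1, then 2, as in all pairs of values that follow). The mean over all 9306 genes was 8.43 to 8.59. So 1 array of every group stood above the other: replicate 1 in MZ HOM, MZ WT, FO HOM and FO HET, and replicate 2 in MZ HET and FO WT. The first 4 of these are the arrays with S100a8 and S100a9. In MZ HET and FO WT, S100a8 and S100a9 were 2.21 to 2.61 on both arrays. Jchain, a plasma cell marker, was 6.88 and 2.61 in FO WT, and its highest MZ value was 5.66, on MZ HET replicate 1. So it was highest of each cell type on the array of FO WT and of MZ HET that was low for the immediate early genes. Jchain was higher on replicate 1 in every group. The plasma cell markers Sdc1 and Prdm1 were not highest of their cell type on FO WT replicate 1 or MZ HET replicate 1. The part of signal from other cells and of the 5' controls in the gap of any group was not tested. In samples of many cells, fewer cells with a transcript and less of it per cell cannot be told apart.

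**Figure D1:**
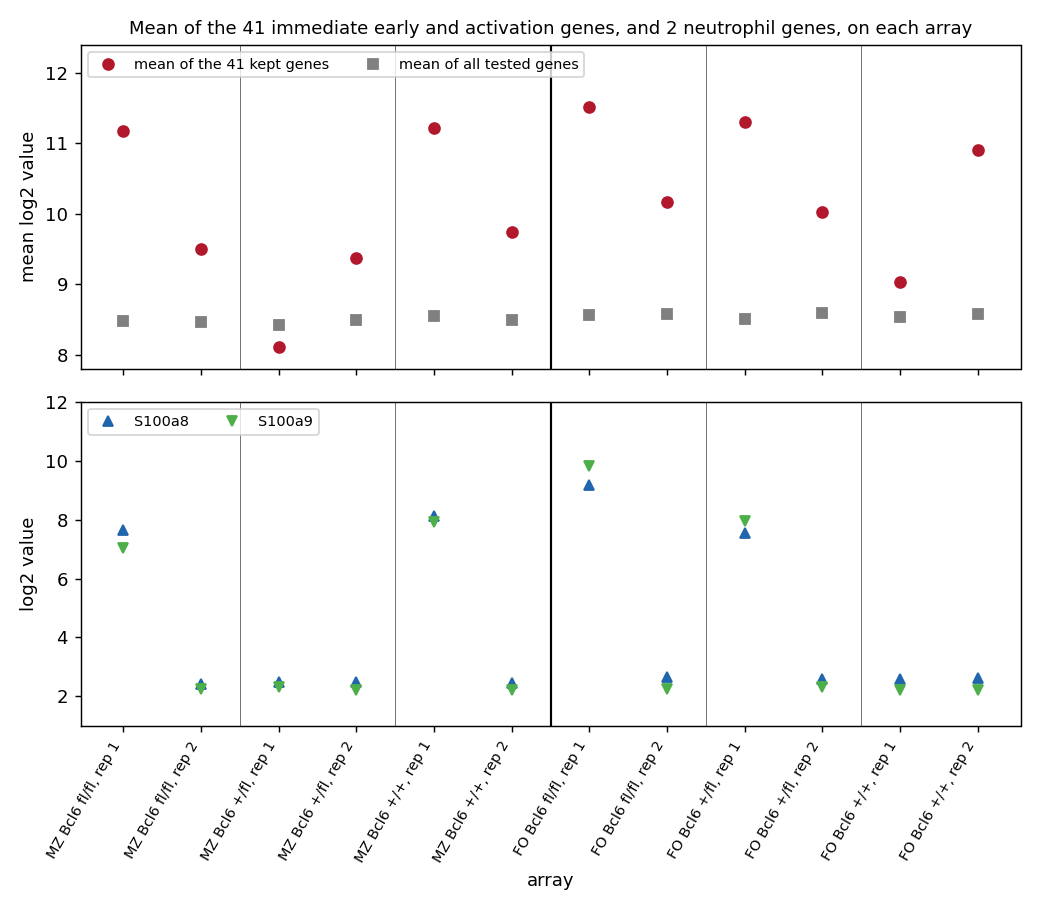
Upper panel: mean log2 value of the 41 genes (circles) and of all 9306 genes (squares) on each of the 12 arrays. Lower panel: log2 values of S100a8 and S100a9. On the axis, fl/fl is HOM, +/fl is HET and +/+ is WT. The mean of the 41 genes runs from 8.11 (MZ HET replicate 1) to 11.52 (FO HOM replicate 1) while the mean of all genes stays between 8.43 and 8.59, and the neutrophil genes are at 7.04 or more on 4 arrays.

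The gaps were shared by most of the 41 genes. In MZ HOM, 37 were higher on replicate 1, against 50.7% of all genes, and 27 were higher by 1 log2 unit or more, against 3.55%. In MZ HET, 37 were higher on replicate 2 (all genes 56.5%), 25 of them by 1 or more (2.03%). In MZ WT, 32 were higher on replicate 1 (57.6%), 25 by 1 or more (7.25%). The FO groups showed the same. In FO HOM, 35 were higher on replicate 1 (47.1%), 22 by 1 or more (2.39%). In FO HET, 33 were higher on replicate 1 (39.4%), 21 by 1 or more (2.31%). In FO WT, 39 were higher on replicate 2 (53.8%), 25 by 1 or more (3.25%). The median gap of the 41 genes was 1.03 to 1.39 log2 units in that direction, whereas the median absolute gap of all genes was 0.22 to 0.37. For 27 of the 41 genes the higher array was the same in all 6 groups, which held for 7.37% of all genes. The direction in each group was read from these genes, so these counts are a description.

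The arrays at the ends were few. MZ HET replicate 1 was the lowest of the MZ arrays for 34 of the 41 genes (24.4% of all genes) and the lowest of all 12 for 27. FO WT replicate 1 was the lowest FO array for 28 (26% of all genes). Both MZ arrays with S100a8 and S100a9 exceeded the other 4 MZ arrays for 26 of the 41 (21.1% of all genes), and both such FO arrays exceeded the other 4 FO arrays for 18 (12.5%). Fosl2, Nr4a1, Nr4a2, Nr4a3, Atf3, Maff, Klf4, Klf6, Myc, Csrnp1, Per1, Tnfaip3, Dusp5, Rgs1, Rgs2 and Plk2 did so in both cell types, 16 of 41 against 6.75% of all genes. Nr4a3 reached the level filter of 4 on these arrays alone. Elsewhere Maff reached it only on FO WT replicate 2 (4.28), and Fosl2 only on FO HOM replicate 2 (4.78). The filter kept Nr4a3, Maff and Fosl2 only through the arrays on which they were high, so their place in this count rests on the filter.

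**Figure D2:**
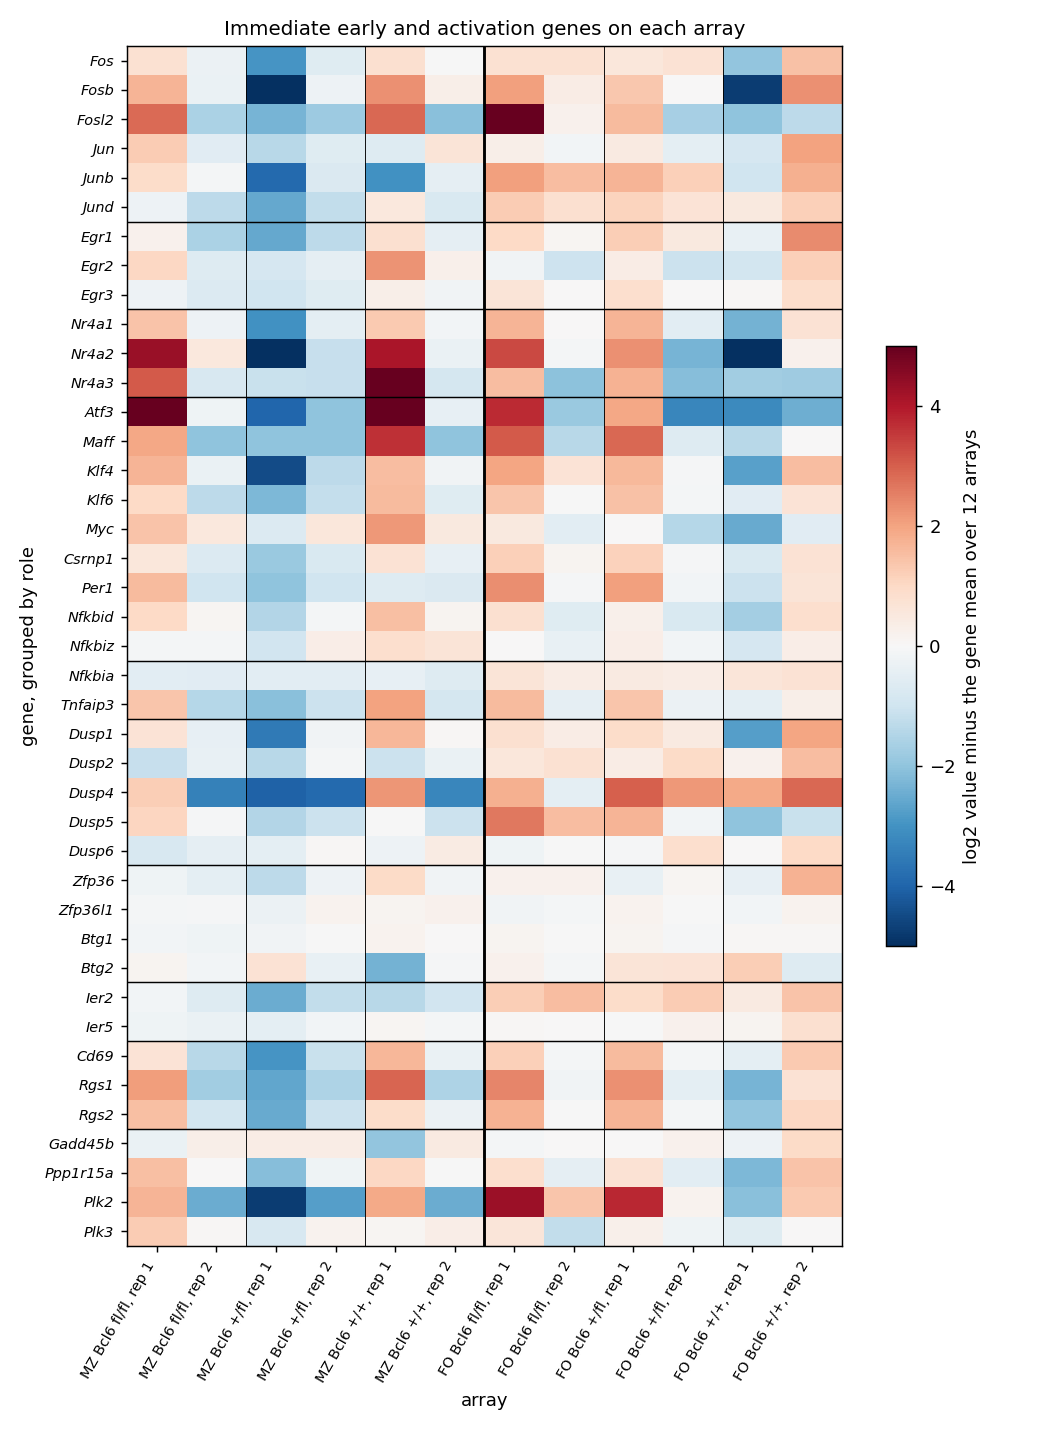
Heat map of the 41 genes (rows, grouped by role) on the 12 arrays (columns, MZ on the left, FO on the right). Colour is the log2 value minus the gene's mean over the 12 arrays, cut off at -5 and 5. Columns of the same group differ, with MZ HET replicate 1 and FO WT replicate 1 mostly blue, while rows such as Btg1 and Zfp36l1 stay pale.

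Spread within groups and spread between genotypes were then set side by side. The residual SD, the spread between arrays of a group pooled over the 6 groups on 6 degrees of freedom, had a median of 1.13 log2 units over the 41 genes and of 0.26 over all genes. It exceeded 1 for 25 of the 41, against 2.4% of all genes. The SD of the 3 genotype means had a median of 0.94 in MZ and 0.38 in FO cells, against 0.18 and 0.13 over all genes. Means of 2 arrays vary with the residual SD divided by the square root of 2 even where genotypes do not differ, so the moderated F of limma, which takes that into account, was used for the comparison. Its median over the 41 genes was 1.78 in MZ cells (0.97 over all genes) and 0.51 in FO cells (0.49 over all genes). None of the 41 passed an adjusted p of 0.05 in either F test (limma, Benjamini-Hochberg over 9306 genes), against 0.0645% of all genes in MZ and 0.236% in FO cells. At an unadjusted p under 0.05 there were 2 in MZ (Jund and Ier2; 4.49% of all genes) and 1 in FO cells (Dusp5; 4.47% of all genes).

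**Figure D3:**
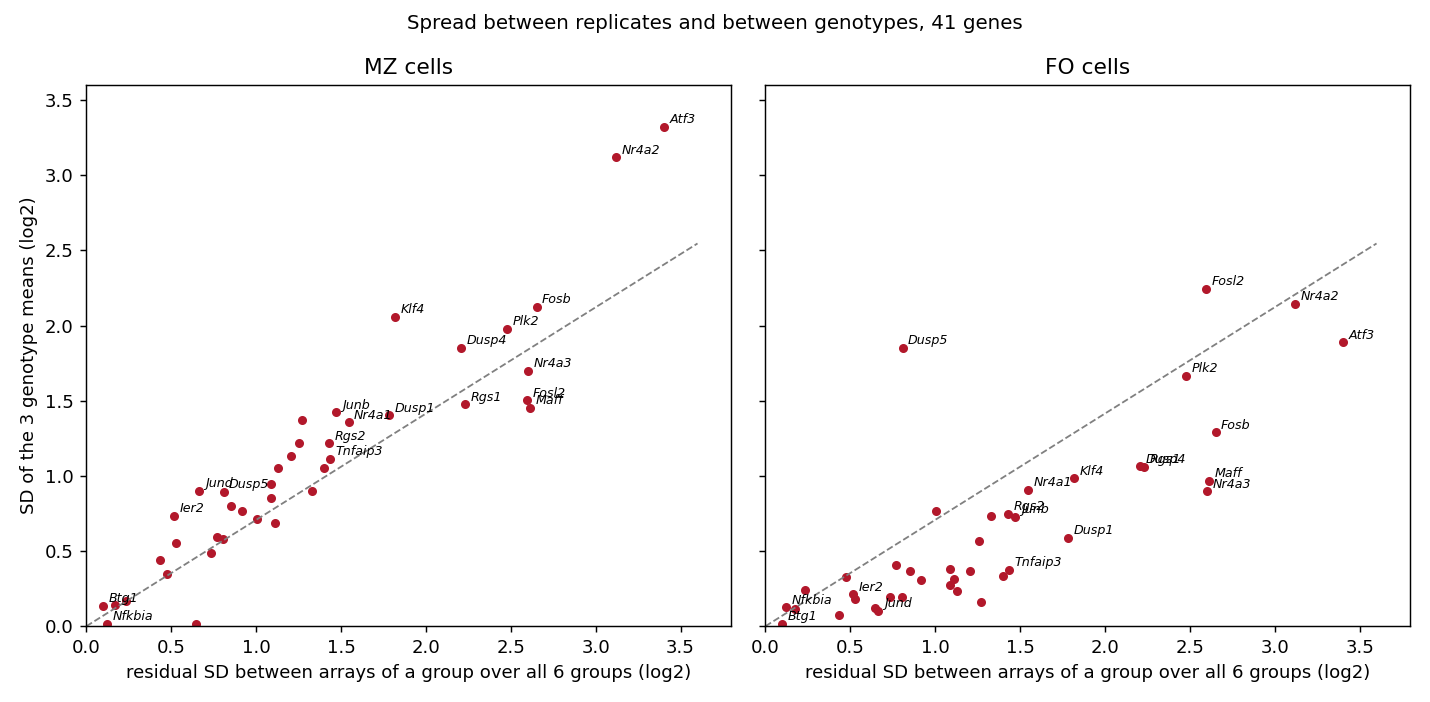
Each point is 1 of the 41 genes, in MZ (left) and FO cells (right). The horizontal axis is the residual SD between arrays of a group over all 6 groups, the vertical axis the SD of the 3 genotype means, both in log2 units, and the dashed line is the SD that means of 2 arrays would have from the residual SD alone. Dusp5 in FO cells, at 0.81 and 1.85, lies farthest above the line.

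Among AP-1 subunits, which pair as Fos and Jun proteins on DNA, the residual SD ran from 0.66 (Jund) to 2.65 (Fosb). Fos, the founding member, was 14.30 and 13.23 in MZ HOM, 10.57 and 12.91 in MZ HET, 14.32 and 13.52 in MZ WT, 14.30 and 14.31 in FO HOM, 14.11 and 14.26 in FO HET, and 11.57 and 14.98 in FO WT. MZ HET replicate 1 and FO WT replicate 1 were low, and the other 10 arrays were at 12.91 or above. Fosb was 11.56 and 9.55 in MZ HOM, 4.84 and 9.59 in MZ HET, 12.16 and 10.15 in MZ WT, 11.93 and 10.24 in FO HOM, 11.20 and 9.87 in FO HET, and 5.12 and 12.13 in FO WT. Its low arrays were the same as those of Fos, and the gap in FO WT, 7.01 log2 units or 129-fold, was the largest of the 41 genes in that group. Fosl2, another Fos family member, was 7.39 and 2.98 in MZ HOM, 2.22 and 2.73 in MZ HET, 7.43 and 2.49 in MZ WT, 9.87 and 4.78 in FO HOM, 6.15 and 2.91 in FO HET, and 2.53 and 3.24 in FO WT. It was 6.15 or more on the 4 arrays with S100a8 and S100a9 and 4.78 or less on the other 8. Jund, a Jun protein, was 10.73 and 9.70 in MZ HOM, 8.44 and 9.76 in MZ HET, 11.52 and 10.25 in MZ WT, 12.28 and 11.81 in FO HOM, 12.13 and 11.68 in FO HET, and 11.50 and 12.18 in FO WT. All 6 MZ values except that of MZ WT replicate 1 lay below every FO value. Jun and Junb, the other Jun proteins, ranged over 3.38 and 5.94 log2 units, and Junb was 7.41 on MZ WT replicate 1, against 10.02 on replicate 2.

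The EGR factors are zinc-finger proteins induced by ERK signalling. Egr3 had the smallest residual SD of the 3, 0.43, with 11.86 and 11.46 in MZ HOM, 11.12 and 11.51 in MZ HET, 12.42 and 11.96 in MZ WT, 12.76 and 12.16 in FO HOM, 12.97 and 12.14 in FO HET, and 12.21 and 13.02 in FO WT. The MZ values of HOM and HET all lay below the FO values. Egr1 ranged from 7.53 to 12.45 and Egr2 from 7.36 to 10.67 over the 12 arrays.

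The NR4A receptors are orphan nuclear receptors that B cells induce on antigen receptor signalling. Nr4a1, which encodes NUR77, was 12.58 and 10.88 in MZ HOM, 8.11 and 10.64 in MZ HET, 12.44 and 10.99 in MZ WT, 12.84 and 11.14 in FO HOM, 12.82 and 10.62 in FO HET, and 8.76 and 11.85 in FO WT. It was lowest on MZ HET replicate 1 and FO WT replicate 1, and in MZ cells both HET values lay below the HOM and WT values. Nr4a2 was 12.03 and 8.22 in MZ HOM, 2.40 and 6.54 in MZ HET, 11.80 and 7.37 in MZ WT, 11.01 and 7.63 in FO HOM, 9.99 and 5.36 in FO HET, and 2.21 and 7.92 in FO WT. It was near the lowest values on FO WT replicate 1 and MZ HET replicate 1 and 9.99 or more on the 4 arrays with S100a8 and S100a9. Of its 6 probe sets, the 4 that reached the level filter had the same higher array in all 6 groups. Nr4a3 was 7.82 and 3.93 in MZ HOM, 3.63 and 3.61 in MZ HET, 10.05 and 3.86 in MZ WT, 6.30 and 2.70 in FO HOM, 6.51 and 2.63 in FO HET, and 3.0 and 2.96 in FO WT. Unlike Nr4a1 and Nr4a2 it did not differ between the arrays of MZ HET and FO WT by more than 0.04, where it was 3.63 or less, so its spread came from the other 4 groups.

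Of the other inducible transcription regulators, Atf3, a stress-induced bZIP factor, had the largest residual SD of the 41 genes, 3.40, with 12.20 and 6.43 in MZ HOM, 2.69 and 4.65 in MZ HET, 12.80 and 6.24 in MZ WT, 10.39 and 4.79 in FO HOM, 8.57 and 3.39 in FO HET, and 3.46 and 4.20 in FO WT. Replicate 1 exceeded replicate 2 by 5.77 in MZ HOM, 6.56 in MZ WT and 5.60 in FO HOM, or 48.4-fold to 94.1-fold. In FO HET replicate 2 was below the level filter of 4, and replicate 1 was higher by at least 4.57 with that value set to 4. Maff, a small Maf protein without a transactivation domain, was 6.21 and 2.26 in MZ HOM, 2.26 and 2.26 in MZ HET, 7.93 and 2.26 in MZ WT, 7.34 and 2.87 in FO HOM, 7.14 and 3.61 in FO HET, and 2.88 and 4.28 in FO WT. It was 6.21 or more on the 4 arrays with S100a8 and S100a9 and 4.28 or less on the other 8. Klf4, a Krüppel-like factor that restrains proliferation of resting B cells, was 13.37 and 11.34 in MZ HOM, 7.21 and 10.38 in MZ HET, 13.22 and 11.49 in MZ WT, 13.64 and 12.37 in FO HOM, 13.30 and 11.62 in FO HET, and 8.97 and 13.22 in FO WT. Both MZ HET values lay below all other MZ values. Myc, the growth regulator, was 14.14 and 13.24 in MZ HOM, 12.03 and 13.29 in MZ HET, 14.86 and 13.19 in MZ WT, 13.21 and 12.16 in FO HOM, 12.72 and 11.28 in FO HET, and 10.18 and 12.14 in FO WT. Its highest value was on MZ WT replicate 1 and its lowest on FO WT replicate 1, and both MZ WT values lay above both FO WT values. Per1 (a circadian repressor), Klf6, Csrnp1 and the nuclear IkB proteins Nfkbid and Nfkbiz had ranges of 4.36, 3.82, 3.05, 3.23 and 1.80.

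The NF-kB feedback inhibitors behaved apart from each other. Nfkbia, which encodes IkB-alpha, the protein that holds NF-kB in the cytoplasm, was 13.34 and 13.30 in MZ HOM, 13.35 and 13.36 in MZ HET, 13.48 and 13.21 in MZ WT, 14.53 and 14.25 in FO HOM, 14.33 and 14.23 in FO HET, and 14.47 and 14.59 in FO WT. On this probe set its arrays of a group differed by 0.28 at most, and every MZ value lay below every FO value. Another of its probe sets differed more, with 6.83 and 5.32 in FO WT. Tnfaip3, which encodes the ubiquitin-editing enzyme A20, was 11.57 and 8.78 in MZ HOM, 8.10 and 9.14 in MZ HET, 12.22 and 9.33 in MZ WT, 11.79 and 9.77 in FO HOM, 11.59 and 9.91 in FO HET, and 9.73 and 10.50 in FO WT. Its 4 highest values were those of the arrays with S100a8 and S100a9.

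MAP kinase phosphatases remove the activating phosphates of ERK, JNK and p38. Dusp1, a nuclear phosphatase of JNK and p38, was 12.49 and 11.40 in MZ HOM, 8.27 and 11.64 in MZ HET, 13.46 and 11.85 in MZ WT, 12.59 and 12.19 in FO HOM, 12.71 and 12.25 in FO HET, and 9.04 and 13.80 in FO WT. Its highest value of the FO arrays and its lowest were both in FO WT. Dusp4, a nuclear phosphatase, was 8.23 and 3.59 in MZ HOM, 2.93 and 3.08 in MZ HET, 9.18 and 3.70 in MZ WT, 8.77 and 6.48 in FO HOM, 9.97 and 9.14 in FO HET, and 8.88 and 9.85 in FO WT. In FO cells it was 6.48 or more, and in MZ cells it was 8.23 and 9.18 on the arrays with S100a8 and S100a9 and 3.70 or less on the other 4. Dusp5, a nuclear phosphatase specific for ERK, was 9.89 and 8.75 in MZ HOM, 7.34 and 7.76 in MZ HET, 8.81 and 7.76 in MZ WT, 11.44 and 10.38 in FO HOM, 10.51 and 8.70 in FO HET, and 6.80 and 7.72 in FO WT. Both FO HOM values and both FO HET values lay above both FO WT values. Dusp2 and Dusp6 were higher on replicate 2 in all 6 groups, by 0.21 to 1.33 and 0.20 to 0.96, which is the direction of most of the 41 genes in MZ HET and FO WT and the opposite one in the other 4 groups.

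The mRNA decay and antiproliferative factors had a median residual SD of 0.47, less than every other role except the IER proteins, at 0.38 for 2 kept genes. Btg1, an antiproliferative protein of resting lymphocytes, was 14.64 and 14.57 in MZ HOM, 14.59 and 14.76 in MZ HET, 14.96 and 14.78 in MZ WT, 14.92 and 14.76 in FO HOM, 14.89 and 14.73 in FO HET, and 14.81 and 14.82 in FO WT. Its residual SD, 0.10, was the smallest of the 41. Another of its 3 probe sets ran from 11.11 to 12.37. Btg2, its relative, was 11.11 and 10.85 in MZ HOM, 11.71 and 10.62 in MZ HET, 8.60 and 10.90 in MZ WT, 11.21 and 10.86 in FO HOM, 11.62 and 11.67 in FO HET, and 12.20 and 10.34 in FO WT. On this probe set it ran against most genes in MZ HET and FO WT, where replicate 1 was higher, and it was lowest on MZ WT replicate 1. Its other probe set did not show this. There replicate 2 was higher in MZ HET (9.26 and 9.56) and FO WT (10.04 and 10.53), and MZ HOM replicate 1 was lowest, at 8.81. Zfp36, which encodes tristetraprolin, a protein that destabilises AU-rich mRNAs, and Zfp36l1 ranged over 3.03 and 0.48. Another probe set of Zfp36l1 ran from 8.19 to 11.32, the values of replicates 1 and 2 of MZ WT, so the small range holds for the chosen probe set only.

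Among IER proteins, Ier5, a regulator of heat shock factor activity, was 13.37 and 13.24 in MZ HOM, 13.07 and 13.43 in MZ HET, 13.67 and 13.46 in MZ WT, 13.62 and 13.58 in FO HOM, 13.56 and 13.77 in FO HET, and 13.72 and 14.37 in FO WT. On this probe set it was highest on FO WT replicate 2 and lowest on MZ HET replicate 1, and both MZ WT values lay above the MZ HOM and MZ HET values. Its other probe sets differed. On one, MZ HET replicate 1, at 7.83, lay above both MZ WT values (7.33 and 7.62), and MZ HOM replicate 1 was lowest, at 6.78. The other was lowest on MZ WT replicate 1, at 2.43. Ier2, a nuclear early-response protein, was 10.97 and 10.49 in MZ HOM, 8.63 and 9.89 in MZ HET, 9.73 and 10.18 in MZ WT, 12.33 and 12.65 in FO HOM, 12.06 and 12.37 in FO HET, and 11.58 and 12.56 in FO WT. All 6 MZ values of Ier2 lay below all 6 FO values.

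The surface and G protein regulators followed the common pattern. Cd69, an activation marker that holds lymphocytes in tissue by removing a sphingosine phosphate receptor from the surface, was 12.55 and 10.49 in MZ HOM, 8.91 and 10.76 in MZ HET, 13.56 and 11.56 in MZ WT, 13.09 and 11.79 in FO HOM, 13.47 and 11.78 in FO HET, and 11.40 and 13.20 in FO WT. Both MZ HET values lay below both MZ WT values, and the MZ HOM values overlapped both. Rgs1 and Rgs2, which switch off G alpha subunits and so dampen chemokine signals, had residual SDs of 2.23 and 1.43.

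Of the stress and growth arrest factors, Ppp1r15a, which directs protein phosphatase 1 to a translation initiation factor, was 12.22 and 10.75 in MZ HOM, 8.62 and 10.50 in MZ HET, 11.79 and 10.73 in MZ WT, 11.59 and 10.30 in FO HOM, 11.46 and 10.22 in FO HET, and 8.48 and 12.15 in FO WT. The lowest and the highest FO values were the 2 arrays of FO WT. Plk2, a polo-like kinase, was 9.25 and 5.06 in MZ HOM, 2.77 and 4.77 in MZ HET, 9.43 and 5.06 in MZ WT, 11.82 and 8.93 in FO HOM, 11.31 and 7.72 in FO HET, and 5.44 and 8.86 in FO WT. It was lowest in MZ cells on HET replicate 1 and in FO cells on WT replicate 1. Plk3 ranged over 2.51, and Gadd45b, a stress sensor, was lowest on MZ WT replicate 1 at 6.79, against 8.46 or more on the other 11 arrays. That array had weak 5' controls. Another probe set of Gadd45b did not set it apart, with 7.63 on both MZ WT replicate 1 and MZ HOM replicate 1.

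**Figure D4:**
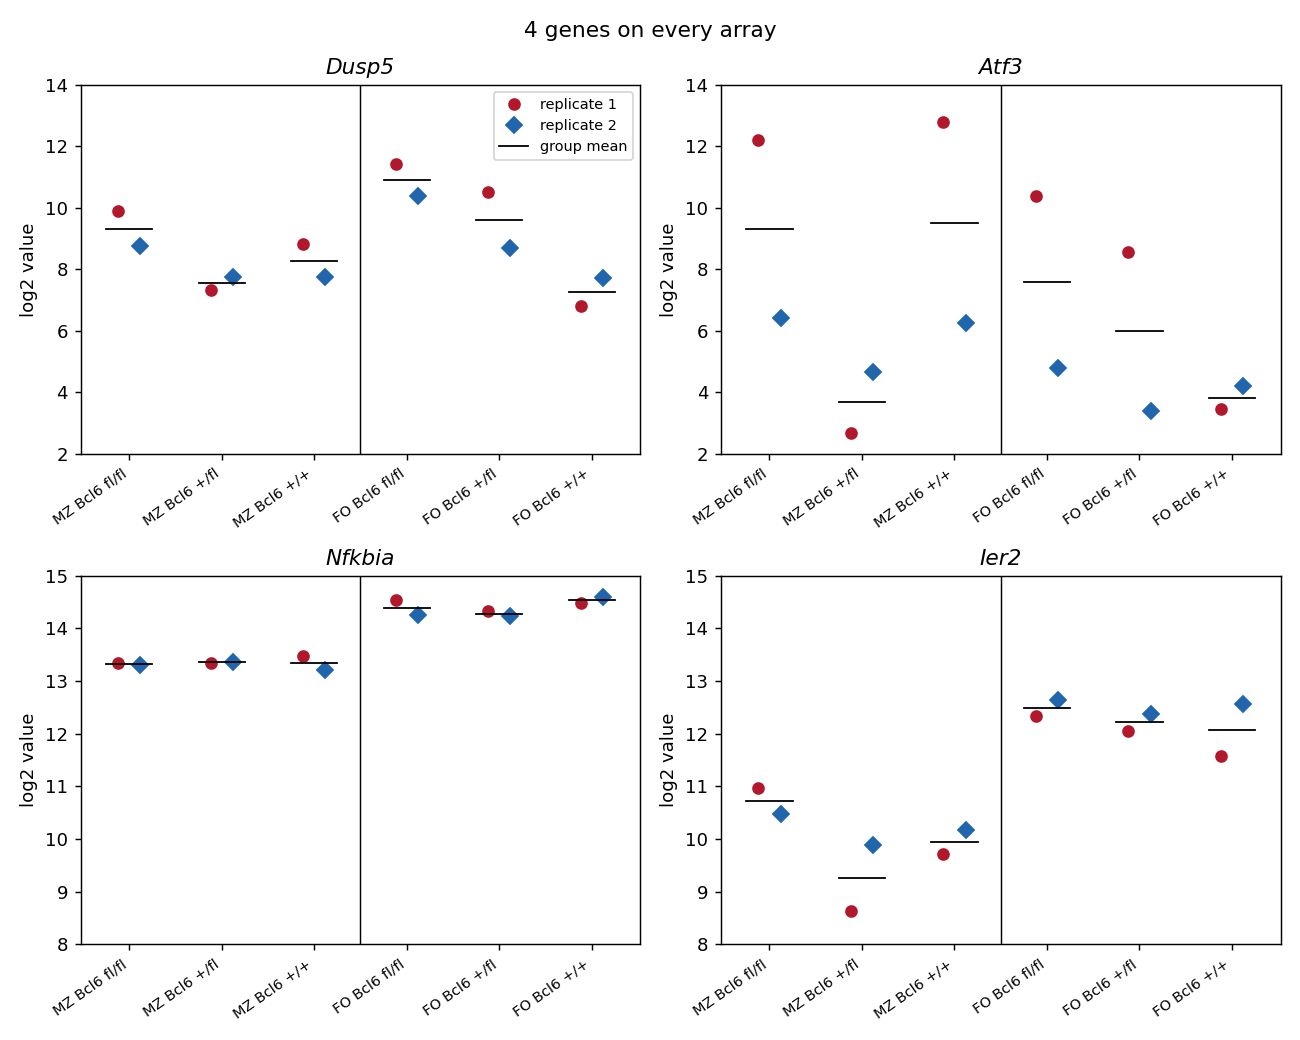
Log2 values of Dusp5, Atf3, Nfkbia and Ier2 on every array, with MZ groups left of FO groups. Circles are replicate 1, diamonds replicate 2 and bars the mean of the 2. The arrays of a group lie far apart for Atf3 and close together for Nfkbia, and both Nfkbia and Ier2 are lower on all MZ arrays than on all FO arrays.

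The promoters of the 42 genes were looked at for the cAMP response element (CRE) and its core, which CREB and AP-1-related factors bind, and for the CArG box of serum response factor. RefSeq promoter windows, from 250 bases before to 50 after each start in GRCm38.p6, were at hand for 34 of the 42 genes. The core TGACG, on either strand, was found in a window of 23 of these 34 genes (67.6%), against 23.0% of all 27025 genes with a window. The full CRE TGACGTCA, which holds the core on both strands, was found in 6 (17.6%), Btg2, Dusp1, Maff, Nfkbid, Plk2 and Ppp1r15a, against 2.03% of all genes. The CArG box was found in Dusp5, Egr2 and Zfp36 (8.82%), against 1.81%. Genes with several starts had several windows, and no base composition was matched, so these shares are a description. The windows of Atf3, Nr4a2, Fosb and Dusp1, each with large gaps between arrays, and of Btg1, with the smallest residual SD, are shown, with the core in capitals (read as CGTCA where it lies on the other strand). They lie at chr1:191183284-191183583, chr2:57123954-57124253, chr7:19309996-19310295 and chr17:26508423-26508722, all on the minus strand, and chr10:96616751-96617050 on the plus strand.
Atf3: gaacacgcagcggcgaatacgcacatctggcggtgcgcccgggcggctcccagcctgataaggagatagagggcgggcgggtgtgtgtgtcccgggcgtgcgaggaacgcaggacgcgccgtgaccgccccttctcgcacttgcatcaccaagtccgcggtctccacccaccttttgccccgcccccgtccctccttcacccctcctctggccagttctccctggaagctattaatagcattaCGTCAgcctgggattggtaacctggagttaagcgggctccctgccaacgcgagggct
Nr4a2: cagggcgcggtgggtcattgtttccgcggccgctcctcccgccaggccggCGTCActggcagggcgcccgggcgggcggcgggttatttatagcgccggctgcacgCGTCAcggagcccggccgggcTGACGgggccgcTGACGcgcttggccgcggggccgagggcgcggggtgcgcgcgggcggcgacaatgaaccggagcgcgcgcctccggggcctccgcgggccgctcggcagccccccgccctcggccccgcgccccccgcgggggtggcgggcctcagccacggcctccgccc
Fosb: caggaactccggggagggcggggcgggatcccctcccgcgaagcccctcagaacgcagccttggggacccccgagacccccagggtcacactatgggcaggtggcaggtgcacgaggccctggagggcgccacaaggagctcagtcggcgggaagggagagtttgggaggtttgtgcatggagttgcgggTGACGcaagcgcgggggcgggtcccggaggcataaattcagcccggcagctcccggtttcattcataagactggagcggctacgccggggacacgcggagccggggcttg
Dusp1: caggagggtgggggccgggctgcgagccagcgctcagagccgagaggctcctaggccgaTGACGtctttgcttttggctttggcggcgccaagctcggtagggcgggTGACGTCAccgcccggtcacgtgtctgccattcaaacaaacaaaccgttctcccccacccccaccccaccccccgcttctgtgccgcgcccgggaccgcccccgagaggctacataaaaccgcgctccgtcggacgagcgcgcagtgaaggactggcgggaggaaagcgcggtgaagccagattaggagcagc
Btg1: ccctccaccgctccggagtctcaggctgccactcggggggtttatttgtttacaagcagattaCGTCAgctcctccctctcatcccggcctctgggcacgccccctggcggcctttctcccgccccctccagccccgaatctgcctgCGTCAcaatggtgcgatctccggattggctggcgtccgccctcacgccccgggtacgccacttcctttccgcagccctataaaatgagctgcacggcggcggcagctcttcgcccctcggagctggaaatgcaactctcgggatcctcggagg

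Nr4a2 held the core 4 times, Dusp1 3 times, including the full CRE, and Atf3 and Fosb once each. Btg1 held it 2 times. Of the 6 genes with the largest residual SD, Atf3, Nr4a2, Fosb, Maff and Nr4a3 held the core and Fosl2 did not. A match says only that the letters are in the window.

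Homozygous floxed cells were compared with wild-type cells in each cell type, to ask what loss of Bcl6 changes in naive B cells. In MZ cells none of the 41 genes passed (limma, adjusted p under 0.05; 0 also at an unadjusted p under 0.05, against 6.08% of all genes), and 0.0645% of all genes were called (0.0107% higher and 0.0537% lower). Their median change was -0.25 (all genes -0.08), and 13 of 41 were higher in HOM. The direction of that median rested on single arrays: it was 0.40 without MZ WT replicate 1 and 0.50 without MZ HOM replicate 2, and -0.87 without MZ WT replicate 2. Values of both HOM arrays exceeded both WT arrays for 2 genes (4.88%, all genes 9.96%) and fell short of them for 7 (17.1%, all genes 21.3%).

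In FO cells none of the 41 passed either (limma), against 0.43% of all genes (0.376% higher and 0.0537% lower), and 1, Dusp5, had an unadjusted p under 0.05 (all genes 6.97%). Their median change was 0.63 (all genes 0.00), with 27 of 41 higher in HOM. It was -0.20 without FO WT replicate 1 and -0.09 without FO HOM replicate 1, and 1.27 without FO WT replicate 2. Arrays of HOM lay above those of WT for 5 genes (12.2%, all genes 18%) and below for 3 (7.32%, all genes 15.9%). Dusp5 averaged 10.91 ± 0.75 in FO HOM, 9.61 ± 1.28 in FO HET and 7.26 ± 0.65 in FO WT cells (SD, n = 2 each). The change from WT was 3.65 ± 0.69 in FO HOM (SE; 12.6-fold; limma adjusted p = 0.0910) and 2.35 ± 0.69 in FO HET (5.10-fold; limma adjusted p = 1). The adjusted p for FO HOM ran from 0.0793 to 0.538 when each array in turn was left out, and the change from 3.12 to 4.18.

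In MZ cells Dusp5 averaged 9.32 ± 0.81 in HOM, 7.55 ± 0.30 in HET and 8.28 ± 0.74 in WT cells (SD, n = 2 each). The HOM change was 1.04 ± 0.69 (SE; limma adjusted p = 0.813). Averaged over both cell types it was 2.35 ± 0.49 (limma adjusted p = 0.115), with 3 of the 4 HOM arrays above every WT array of both cell types. The HOM change differed between MZ and FO cells by -2.61 ± 0.98 (limma adjusted p = 0.975, unadjusted p = 0.0273). Dusp5 did not pass in any of these tests, and an adjusted p above the threshold does not show that it did not change.

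Over both cell types, none of the 41 passed for HOM against WT (limma; 1 at an unadjusted p under 0.05, all genes 9.07%), against 0.462% of all genes (0.333% higher and 0.129% lower), and the median change was 0.21 (all genes -0.04). None passed for the difference of the HOM change between MZ and FO cells (limma, all genes 0.0107%; 1 at an unadjusted p under 0.05, all genes 3.74%), where the median was -0.87 and was 0.18 without FO WT replicate 1. With 1 floxed allele, none passed in FO cells (limma, 0% of all genes; 1 at an unadjusted p under 0.05, all genes 1.98%), and the median change of 0.52 was -0.28 without FO WT replicate 1. Both FO HET arrays lay above both FO WT arrays for 1 gene (2.44%, all genes 12.8%) and below for 1 (2.44%, all genes 10%).

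Of the comparisons of genotypes, MZ HET against MZ WT had the most genes in 1 direction, again with none of the 41 past the threshold (limma; 0.0107% of all genes called). At an unadjusted p under 0.05 there were 3, Jund, Klf4 and Cd69, against 3.08% of all genes. Their median change was -1.70 (all genes -0.05), and 38 of 41 were lower in HET. Both HET arrays lay below both WT arrays for 26 of the 41 (63.4%, all genes 17.8%), and above for 0 (all genes 10.4%). The median was -0.95 without MZ HET replicate 1 and -0.89 without MZ WT replicate 1, the array with the weak 5' controls. Jund averaged 9.10 ± 0.93 in MZ HET and 10.88 ± 0.90 in MZ WT cells (SD, n = 2 each), a change of -1.78 ± 0.57 (SE; limma adjusted p = 0.792). Klf4 averaged 8.79 ± 2.24 in MZ HET and 12.36 ± 1.22 in MZ WT cells (limma adjusted p = 0.792), and Cd69 9.84 ± 1.31 and 12.56 ± 1.41 (limma adjusted p = 0.792).

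Homozygous arrays were also set against heterozygous ones. In MZ cells none of the 41 passed (limma; 0.0322% of all genes called, 0.0107% higher and 0.0215% lower). At an unadjusted p under 0.05 there were 3, Klf4, Dusp5 and Ier2, against 5.44% of all genes. Here the median change was 1.55 (all genes 0.00), 34 of 41 were higher in HOM, and it ran from 0.50 to 2.35 when each array was left out. Arrays of HOM lay above those of HET for 18 genes (43.9%, all genes 18.4%) and below for 2 (4.88%, all genes 20.4%). This comparison shares the MZ HET arrays with that of MZ HET against MZ WT. In FO cells none passed (limma, 0.0752% of all genes; 0 at an unadjusted p under 0.05, all genes 3.03%), with a median of 0.11 that changed sign with single arrays (-0.48 to 0.62). Arrays of HOM lay above those of HET for 2 genes (4.88%, all genes 13.6%) and below for 3 (7.32%, all genes 11.6%). Whether the HET change differed between cell types was tested after the data were seen: none passed (limma, 0% of all genes; 1 at an unadjusted p under 0.05, all genes 4.17%), with a median of -2.05.

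A fit without the 4 arrays with S100a8 and S100a9 had 8 arrays, 2 residual degrees of freedom and 4 groups of 1 array. For genotypes only its changes are given here. The median residual SD of the 41 genes was then 1.01, against 0.20 over all genes, and came from MZ HET and FO WT alone. The median change was -0.21 for MZ HOM and -0.09 for FO HOM against WT, and -0.89 for MZ HET and 0.03 for FO HET against WT. Between cell types that fit called Nr4a3, at 3.61 to 3.93 on the MZ arrays and 2.63 to 3.0 on the FO arrays and so below the level filter on all 8, as higher in MZ cells of all 3 genotypes. It called Dusp4 lower in HET and WT, and Nfkbia lower in WT.

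Few of the 41 genes differed between cell types at the threshold. In WT cells, MZ against FO, 1 was higher (Myc; all genes 10.7%) and 2 were lower (Nfkbia and Ier2; all genes 11.5%), against 22.2% of all genes called in either direction (limma). In HET cells 0 were higher (all genes 9.94%) and 5 lower (13.3%), Ier2, Nfkbia, Jund, Dusp4 and Egr3, against 23.2% in either direction. In HOM cells 0 were higher (8.28%) and 2 lower (10.8%), Nfkbia and Ier2, against 19.1% in either direction. In none of the 3 genotypes was the share of the 41 genes called above that of all genes. MZ and FO values may come from separate normalizations, since the lowest value was 2.22 on MZ arrays and 2.21 on FO arrays, and this cannot be told apart from cell type.

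Nfkbia was lower in MZ cells of every genotype. It averaged 13.32 ± 0.03 in MZ HOM and 14.39 ± 0.20 in FO HOM cells, 13.35 ± 0.01 in MZ HET and 14.28 ± 0.07 in FO HET cells, and 13.34 ± 0.19 in MZ WT and 14.53 ± 0.08 in FO WT cells (SD, n = 2 each). The change was -1.07 ± 0.16 in HOM (SE; 2.10-fold lower; limma adjusted p = 0.00206), -0.93 ± 0.16 in HET (limma adjusted p = 0.00383) and -1.19 ± 0.16 in WT cells (limma adjusted p = 9.99e-04). It passed without each array in turn. Without the 4 arrays with S100a8 and S100a9 it passed in WT (-1.32, adjusted p = 0.0251) and missed in HOM (-0.95, adjusted p = 0.0773) and HET (-0.88, adjusted p = 0.0518; limma). The other 4 of its 5 probe sets had lower means in MZ than in FO cells as well, 3 of them without overlap of the arrays.

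Ier2 was lower in MZ cells too, by 1.76 ± 0.45 in HOM (SE; limma adjusted p = 0.0277), 2.95 ± 0.45 in HET (limma adjusted p = 0.00216) and 2.12 ± 0.45 in WT cells (limma adjusted p = 0.0109), or 3.39-fold, 7.75-fold and 4.34-fold. In HET it passed without each array in turn. In WT it missed without MZ WT replicate 1 (adjusted p = 0.0620) or FO WT replicate 2 (0.0736), and in HOM without any 1 of the 4 arrays compared (0.0685 to 0.154; limma). Without the 4 arrays with S100a8 and S100a9 it missed in all 3 genotypes (limma adjusted p = 0.0844 to 0.257), with changes of -2.16 in HOM, -3.11 in HET and -1.89 in WT.

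The remaining calls were in 1 genotype each and depended on single arrays. Myc averaged 14.02 ± 1.18 in MZ WT and 11.16 ± 1.38 in FO WT cells (SD, n = 2 each), 2.87 ± 0.86 higher (SE; limma adjusted p = 0.0447). Its change was 2.03 without MZ WT replicate 1 (adjusted p = 0.221) and 1.89 without FO WT replicate 1 (0.232), and it missed in 10 of 12 such fits. Jund in HET was lower by 2.80 ± 0.57 (limma adjusted p = 0.00918), and it missed without MZ HET replicate 1 (0.0720) or FO HET replicate 1 (0.0622). Dusp4 in HET was 2.93 and 3.08 in MZ cells, below the level filter of 4, and averaged 9.55 ± 0.58 in FO cells (SD, n = 2). With MZ set to 4 it was lower by at least 5.55, or at least 47.0-fold. Its limma adjusted p was 0.0364, and it missed in 6 of 12 such fits (0.0523 to 0.148). Egr3 in HET was lower by 1.24 ± 0.38 (limma adjusted p = 0.0498) and missed in 9 of 12 (0.0508 to 0.257).

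Over all 41 genes the median MZ minus FO change was -0.56 in HOM, -2.06 in HET and 0.43 in WT cells (all genes -0.17, -0.17 and -0.12). In HET, MZ arrays lay below FO arrays for 25 of the 41 (61%, all genes 42%) and above for 1 (2.44%, all genes 23.6%). In HOM this was 12 (29.3%, all genes 42.8%) and 2 (4.88%, all genes 21%), and in WT 4 (9.76%, all genes 33.7%) and 6 (14.6%, all genes 23.1%). The median in WT cells was -0.69 without FO WT replicate 1 and -0.11 without MZ WT replicate 1, and that in HOM cells 0.10 without MZ HOM replicate 2. In HET it kept its sign, from -2.80 to -1.08.

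Other inducible genes were taken from a list of 36 outside the 42. Of these, 30 were kept, and 20 to 25 of the 30 were higher on the same array of each group as most of the 42, against 39.4% to 57.6% of all genes. In the genotype comparisons 1 of the 30 passed: Cd83, which B cells show on their surface once activated, lower by 0.96 ± 0.13 in HOM over both cell types (SE; limma adjusted p = 0.0253). In that comparison 0.462% of all genes passed, 0.129% as lower. Between cell types, MZ against FO, 2 were higher and 2 lower in WT, 3 higher and 7 lower in HET, and 2 higher and 3 lower in HOM cells. Of all genes, 10.7% were higher and 11.5% lower in WT, 9.94% and 13.3% in HET, and 8.28% and 10.8% in HOM cells. Dusp16, a phosphatase of JNK and p38, was higher in MZ cells by 2.70 to 2.99 in the 3 genotypes (limma adjusted p = 2.24e-05 or less).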

How the data were processed

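Total RNA of sorted cells was extracted with TRIZOL, labelled with the GeneChip 3' IVT Express Kit and hybridised to Affymetrix arrays, per the labels' protocols. The values deposited by the authors are log2 signals per probe set, and the submitters' processing notes name GCRMA as the method. The GCRMA version, and whether MZ and FO arrays were normalized together, are not given in the sources used here. Of 45101 probe sets, 64 controls were left out, 34945 had 1 gene symbol in the platform annotation and 932 several. No symbol was given for 9211, a count that includes some of the controls. Each gene was represented by the probe set with the highest mean, and the 9306 genes that reached a log2 value of 4 on 2 arrays entered the tests. Group means of the 6 groups of 2 arrays were fitted with limma 3.58.1 in R 4.3.3 (lmFit and eBayes, 6 residual and 2.43 prior degrees of freedom). P-values were adjusted by Benjamini-Hochberg over all 9306 genes, with a threshold of 0.05. The model was tested on simulated data.

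Values on every array are given for genes past the threshold between genotypes, for the gene with the highest mean and that with the smallest genotype F-test p in each role, for the 6 with the largest residual SD, and for up to 8 past the threshold between cell types. Of other lists, up to 4 genes past the threshold were named by smallest p. The genes and lists were chosen with earlier results of these data known. Alternatives covered the level filter, the probe set rule, scaling, variance model, arrays in the model, replicate number and each array left out. Leaving out the 4 arrays with S100a8 and S100a9 together, the HET difference between cell types and the medians were added after the data were seen. Lists of other inducible genes, upstream kinases and factors, and heat shock genes were counted as described.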

Additional observations from a re-analysis of the deposited data

How the results depend on the processing

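No comparison of genotypes called 1 of these genes under any alternative to the filter, probe set, scaling, variance model or replicate number. Leaving out each array gave 0 in these comparisons, except MZ HET against MZ WT, with 0 to 1 (Gadd45b without MZ WT replicate 2). Between cell types, MZ against FO, leaving out each array gave 1 to 6 calls in WT (3 with all arrays), 2 to 6 in HET (5) and 1 to 3 in HOM (2). Without the 4 arrays with S100a8 and S100a9 there were 3 in WT (Dusp4, Nfkbia and Nr4a3), 2 in HET (Dusp4 and Nr4a3) and 1 in HOM (Nr4a3), so that Nr4a3, and Dusp4 in WT, were not among the calls with all arrays, and the median difference of the HET change between cell types was -0.87, against -2.05; with fewer arrays, 2 residual degrees of freedom were left. Whether replicate numbers pair the samples is not given, and correlations cannot decide it. The differences of replicate 1 minus 2 correlated by -0.26 to 0.77 between groups over 9306 genes. Among MZ HOM, MZ WT, FO HOM and FO HET this was 0.45 to 0.77, between MZ HET and FO WT 0.58, and otherwise -0.26 to 0.12. For replicate number as a term, 0 genes passed (limma). At an unadjusted p under 0.05 there were 2083 of all genes and 7 of the 41. With the replicate block, HET had 8 calls and 61 genes passed in FO HOM against WT, against 40; as a random replicate block (correlation 0.15) the MZ against FO calls were 4 in WT, 7 in HET and 3 in HOM. Those 40 genes were 17 without the filter, 20 with the probe set of the largest SD, 5 with FO arrays alone and 1 without the 4 arrays. Without the filter, 8090 genes passed in WT, 8097 in HET and 7796 in HOM between MZ and FO (limma), against 2066, 2159 and 1775. The lowest values differ between MZ and FO arrays, but the part of this in the rise was not tested. Nor were the causes of the other shifts. F tests have no value under the random block, nor MZ against FO within the arrays of 1 cell type.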

Other observations

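Of 23 upstream kinases and serum response or CREB factors, 18 were on the array and 17 kept, and 0 passed between genotypes (limma, all genes 0% to 0.462%). At an unadjusted p under 0.05 there were 0 to 3 of the 17, against 1.98% to 9.07% of all genes. Rel, an NF-kB subunit, was 10.76 and 7.96 in MZ HOM, 7.20 and 8.08 in MZ HET, 11.84 and 8.43 in MZ WT, 11.03 and 8.68 in FO HOM, 11.14 and 8.94 in FO HET, and 8.42 and 9.68 in FO WT, and so had the same higher array in every group as most immediate early genes. It was named after its values were seen. Of the 17, the array high for the immediate early genes was the higher one for 11 in MZ HOM (50.7% of all genes), 14 in MZ HET (56.5%) and 11 in MZ WT (57.6%). In FO cells this was 13 in HOM (47.1%), 9 in HET (39.4%) and 12 in WT (53.8%). Between MZ and FO cells 1 was higher and 1 lower in HOM, 1 higher and 2 lower in HET, and 1 higher and 3 lower in WT, where all genes gave 8.28% and 10.8%, 9.94% and 13.3%, and 10.7% and 11.5%.

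Of 12 heat shock genes, 11 were on the array and 9 kept, and 0 passed between genotypes (limma, all genes 0% to 0.462%). At an unadjusted p under 0.05 there were 0 to 1 of the 9, against 1.98% to 9.07% of all genes. On the array that was high for the immediate early genes, 9 of the 9 were higher in MZ HOM (50.7% of all genes), 4 in MZ HET (56.5%), 8 in MZ WT (57.6%), 8 in FO HOM (47.1%), 7 in FO HET (39.4%) and 2 in FO WT (53.8%). Between MZ and FO cells 0 were higher, and 1 was lower in HOM (10.8% of all genes), 2 in HET (13.3%) and 1 in WT (11.5%).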
